A study of Mus musculus with 6 samples.

Results

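The 9 genes described here are the writers and erasers of DNA methylation with the UHRF proteins that guide them, *Dnmt1*, *Dnmt3a*, *Dnmt3b*, *Uhrf1*, *Uhrf2*, *Tet1*, *Tet2*, *Tet3* and *Tdg*. They were taken by symbol and matched to 9 of the 32493 Ensembl genes counted by RNA-seq in cultured mouse neural stem cells (NSCs). The cells were taken at E14.5 from the lateral ventricles of C57BL/6J embryos and grown for 3 generations. The cko NSCs carried floxed miR-151 alleles together with Emx1-IRES-Cre, a driver active in the dorsal telencephalon, and the ctrl NSCs (wt in the labels) carried the floxed alleles and no Cre. Both genotypes thus shared the loxP sites, which lie in an intron of *Ptk2*, and no row of the table counts the miR-151 gene, so its loss could not be checked in these libraries. Per the study, the cko and ctrl NSCs came from littermates. The sources do not say which libraries shared a litter, nor how many embryos or cultures went into a library. The p-values here measure only the spread between libraries. Of the 3 ctrl columns, the one for replicate 2 equalled the mean of replicates 1 and 3, rounded up, in 32493 of 32493 genes. It holds no reads of its own, so that 2 ctrl libraries (replicates 1 and 3) were compared with 3 cko libraries.

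Cytosine methylation at CpG sites is copied at each round of DNA replication and can be set or removed between rounds. UHRF1 recognizes the half-methylated CpG that leaves the replication fork and brings in DNMT1, which methylates the new strand. DNMT3A and DNMT3B methylate sites that carried no mark. The TET enzymes oxidize methylcytosine in steps that use 2-oxoglutarate, and TDG cuts out the most oxidized bases so that base excision repair can restore plain cytosine. In the developing forebrain, loss of *Dnmt1* from neural precursors brings astrocyte genes on early, and the oxidized form of methylcytosine is abundant in neurons.

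In cko NSCs the maintenance pair was higher, and the other 7 genes did not pass the test. *Uhrf1* was 2.11-fold and *Dnmt1* 1.57-fold higher and passed a threshold of 0.05 on the adjusted p (Benjamini-Hochberg) of edgeR's quasi-likelihood test, against 7.86% of the 16710 tested genes that were higher at that threshold. No member was lower at that threshold or at an unadjusted p under 0.05 in edgeR, and DESeq2 called 0 lower as well. Over all tested genes, 8.57% were lower. All 9 members passed the filter on low counts. The median log2 fold change of the 9 genes was -0.01, as it was near 0 over all tested genes (-0.003). The study's own threshold, a log2 fold change beyond 0.9 with an unadjusted p under 0.01, was set on DESeq2 results. Applied here to the edgeR results of the 5 libraries used, it was passed by *Uhrf1* alone among the members. *Uhrf1* was higher, as were 2.39% of tested genes at that threshold.

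The depth of the 5 libraries was 17883796 to 23335736 counts, which puts 3 counts, the least that was read as signal, at 0.129 to 0.168 CPM (counts scaled to a common library size), a limit that covers counting error only. Levels below are CPM normalized by the TMM method. The ctrl libraries stood further apart than the cko libraries did, with 682 of the 16710 genes over 2-fold apart between them, against 76 to 165 between pairs of cko libraries. NSC markers were present in all libraries. Their sum over 12 genes was 7531 to 8557 CPM in ctrl and 8897 to 9578 CPM in cko. At an adjusted p under 0.05 by edgeR, 4 of the 12 rose with the knockout and 2 fell. The microglial list summed to at most 0.800 CPM with *Cx3cr1*, *Itgam* and *Tmem119* at 0, the endothelial list to at most 6.76 CPM with *Cdh5* at 0, and the fibroblast list to at most 6.72 CPM. Glial markers moved with genotype as well. Of 11 oligodendrocyte lineage genes, 6 were lower and 2 higher in cko NSCs, and their summed level was 3221 to 3842 CPM in ctrl and 3512 to 3765 in cko. Of 8 astrocyte genes, 4 were lower, with sums of 2061 to 3059 CPM in ctrl and 1246 to 1874 in cko. Of 8 tested neuronal genes, 2 were higher and 1 was lower, with sums of 1150 to 1279 CPM in ctrl and 1295 to 1324 in cko. *Xist* was lower and 4 Y-linked genes were higher in cko NSCs, and all 5 passed the same threshold. The part of these shifts in the results below was not tested, and in bulk RNA fewer cells of a type and less RNA per cell cannot be told apart.

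*Dnmt1* (ENSMUSG00000004099, GRCm38 chromosome 9, 20907209 to 20959888, minus strand) encodes the maintenance methyltransferase. It was measured at 177 and 215 CPM in ctrl libraries 1 and 3, and at 257, 337 and 328 CPM in cko libraries 1, 2 and 3. Each cko library was above both ctrl libraries. The log2 fold change was 0.65 (standard error 0.14, 95% confidence interval 0.32 to 0.98), with an adjusted p of 0.0226 in edgeR. *Uhrf1* (ENSMUSG00000001228, chromosome 17, 56303321 to 56323486, plus strand), the reader of half-methylated CpG and a ubiquitin ligase, was measured at 50.5 and 76.4 CPM in ctrl and at 98.0, 160 and 142 CPM in cko NSCs. The groups did not overlap, although ctrl library 3 was 1.51 times ctrl library 1. Its log2 fold change was 1.08 (standard error 0.24, 95% confidence interval 0.51 to 1.64), the largest among the 9 members, with an adjusted p of 0.0248 in edgeR. Both calls were lost without cko library 2 or 3. Without cko library 2 the adjusted p was 0.102 for *Dnmt1* and 0.0947 for *Uhrf1*, and without cko library 3 it was 0.103 and 0.0984 in edgeR, with the fold changes between 0.57 and 1.02 on the log2 scale. Over all 11 alternatives the adjusted p was at most 0.103 for *Dnmt1* and 0.0984 for *Uhrf1*. Its smallest values, 1.14e-09 and 1.25e-22, came from the edgeR fit with no filter. There the standard error of *Uhrf1* was 0.10 in place of 0.24. The next smallest, 0.000679 and 0.00015, came from DESeq2.

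*Uhrf2* (ENSMUSG00000024817, chromosome 19, 30030513 to 30093722, plus strand) encodes the close relative of UHRF1, which does not take over its role in maintenance. It stood at 126 and 115 CPM in ctrl and at 120, 117 and 122 CPM in cko NSCs. The 3 cko values lay between the ctrl values. The log2 fold change was -0.01 with a 95% confidence interval of -0.18 to 0.16 (adjusted p = 0.955 in edgeR), an interval that lies below the whole interval of *Uhrf1*.

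The promoters of the UHRF genes and of *Dnmt1* are shown because *Uhrf1* and *Dnmt1* differed between genotypes and *Uhrf2* did not pass the test, and E2F factors are known to drive genes of S phase. Sequences are those of RefSeq on GRCm38.p6, 5′ to 3′ on the strand of the gene, and were cut before any annotated exon inside the window. The windows of the second start sites of *Uhrf1* and *Dnmt1* lie within the annotated gene. Capitals mark the core letters of the E2F motif, searched as the letters TTCCCGC, the letters TTCGCGC, the letters TTGCCGC and the letters TTGGCGC on both strands in the 250 bases before each start site, with overlapping matches kept.
*Uhrf1*, first start site, chr17:56303087-56303320, plus strand: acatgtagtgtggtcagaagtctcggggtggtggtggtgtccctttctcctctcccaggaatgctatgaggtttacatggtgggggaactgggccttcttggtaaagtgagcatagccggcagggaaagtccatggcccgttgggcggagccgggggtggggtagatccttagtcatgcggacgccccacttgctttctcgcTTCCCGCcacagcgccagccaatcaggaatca
*Uhrf1*, second start site, chr17:56304063-56304312, plus strand: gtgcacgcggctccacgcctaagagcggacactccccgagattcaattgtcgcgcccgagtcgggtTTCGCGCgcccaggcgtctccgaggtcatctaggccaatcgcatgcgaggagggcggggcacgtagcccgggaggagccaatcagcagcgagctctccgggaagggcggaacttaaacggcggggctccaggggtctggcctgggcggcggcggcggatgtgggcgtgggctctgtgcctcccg
*Uhrf2*, chr19:30030263-30030512, plus strand: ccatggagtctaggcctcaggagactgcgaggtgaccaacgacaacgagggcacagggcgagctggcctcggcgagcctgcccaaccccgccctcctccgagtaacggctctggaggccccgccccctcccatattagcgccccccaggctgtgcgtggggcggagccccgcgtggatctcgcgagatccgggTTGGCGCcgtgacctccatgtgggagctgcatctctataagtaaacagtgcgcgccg
*Dnmt1*, second start site, chr9:20952980-20953229, minus strand: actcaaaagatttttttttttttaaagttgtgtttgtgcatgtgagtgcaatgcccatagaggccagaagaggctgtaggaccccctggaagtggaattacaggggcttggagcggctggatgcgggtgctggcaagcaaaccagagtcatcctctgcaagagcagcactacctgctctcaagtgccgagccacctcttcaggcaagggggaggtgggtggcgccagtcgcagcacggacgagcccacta

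Both start sites of *Uhrf1* had a match, TTCCCGC from 48 bases and TTCGCGC from 184 bases before the start. *Uhrf2*, which did not pass the test, also had a match, TTGGCGC from 57 bases before its start. Of all 32851 promoter windows in the table, 7.89% held at least 1 match in these 250 bases. The window of *Dnmt1* printed here held none of these letters, nor did that of its first start site. That of the start site furthest into the gene held GCGCGAA in 2 places, in a stretch of which 166 bases are exon of other *Dnmt1* transcripts, and was not printed. None of the windows of *Dnmt3a*, *Dnmt3b*, *Tet1*, *Tet2*, *Tet3* and *Tdg* had a match. Such matches describe letters and are not evidence that a factor binds. The windows of the members also differed in CpG sites, from 2 at the first start site of *Dnmt1* to 51 at *Tet2*, where the median of all windows was 6.

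**Figure D1:**
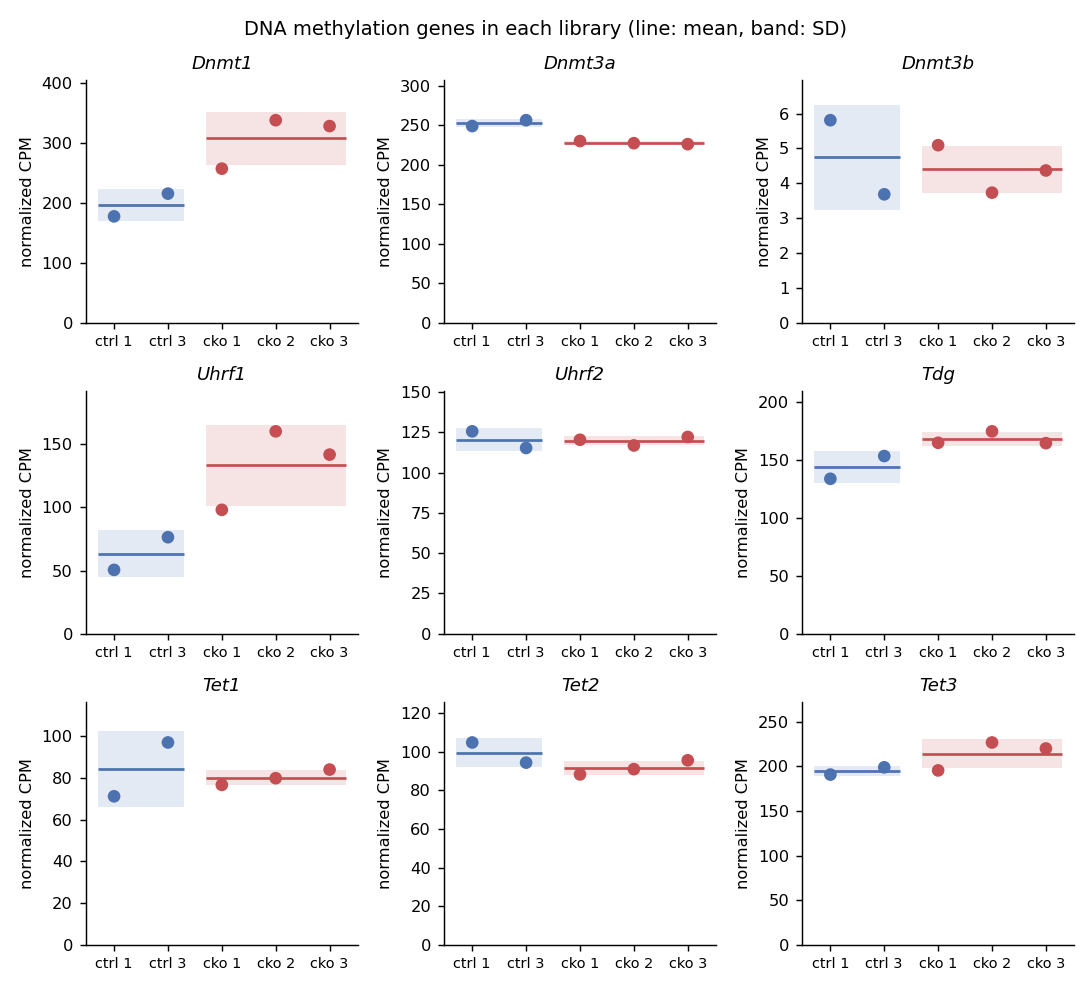
Normalized CPM (vertical axes, from 0) of the 9 genes in ctrl libraries 1 and 3 (blue) and cko libraries 1 to 3 (red), with the mean as a line and 1 SD as a band. *Uhrf1* rises from 50.5 and 76.4 to between 98.0 and 160 CPM, while *Uhrf2* stays between 115 and 126 CPM.

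*Dnmt3a* (ENSMUSG00000020661, chromosome 12, 3806007 to 3914443, plus strand), the main methyltransferase for unmarked sites in the brain, was measured at 249 and 256 CPM in ctrl and at 230, 227 and 226 CPM in cko NSCs. All cko libraries were below both ctrl libraries, and replicates were close, with an SD of 5.26 (n = 2) and 2.02 CPM (n = 3). The difference was small and did not pass the test, with a log2 fold change of -0.15 (95% confidence interval -0.31 to 0.01, adjusted p = 0.174 in edgeR). Only the fit with all 6 columns, in which the averaged column adds no reads of its own, put *Dnmt3a* past the threshold. *Dnmt3b* (ENSMUSG00000027478, chromosome 2, 153649450 to 153687730, plus strand), its partner of the early embryo, was at the lowest level of the 9 genes, with 5.81 and 3.68 CPM in ctrl and 5.09, 3.73 and 4.37 CPM in cko. These values came from 69 to 133 counts and overlapped between genotypes. The interval of its log2 fold change, -0.74 to 0.49, was the widest of the 9 members, and no difference was detectable at this depth (log2 fold change -0.12, adjusted p = 0.793 in edgeR).

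Among the erasers, *Tdg* (ENSMUSG00000034674, chromosome 10, 82629828 to 82650799, plus strand), the glycosylase, was measured at 134 and 153 CPM in ctrl and at 165, 175 and 164 CPM in cko NSCs. The genotypes did not overlap, and the log2 fold change of 0.23 (95% confidence interval 0.03 to 0.43) had an unadjusted p of 0.0303 in edgeR but an adjusted p of 0.112. The log2 fold change was 0.33 without ctrl library 3 and 0.12 without ctrl library 1, each with 1 ctrl library and so no spread within ctrl. The fit with all 6 columns put *Tdg* past the threshold (adjusted p = 0.0276 in edgeR), although the averaged column adds no reads of its own. With *Dnmt1*, *Uhrf1* and *Tdg*, 3 of the 9 members had every cko library above every ctrl library, where 25.4% of all tested genes did. *Dnmt3a* alone had every cko library below, where 24.3% of all tested genes did.

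None of the TET genes passed the test. *Tet3* (ENSMUSG00000034832, chromosome 6, 83362373 to 83459084, minus strand) was measured at 191 and 199 CPM in ctrl and at 196, 227 and 220 CPM in cko NSCs, where cko library 1 lay between the ctrl libraries. Its log2 fold change was 0.14 (95% confidence interval -0.07 to 0.34, adjusted p = 0.320 in edgeR). *Tet2* (ENSMUSG00000040943, chromosome 3, 133463679 to 133545139, minus strand) was measured at 105 and 94.4 CPM against 88.3, 91.0 and 95.6 CPM, with a log2 fold change of -0.12 (-0.31 to 0.07, adjusted p = 0.344 in edgeR). *Tet1* (ENSMUSG00000047146, chromosome 10, 62804570 to 62908996, minus strand) was measured at 71.1 and 96.9 CPM in ctrl and at 76.6, 79.8 and 83.9 CPM in cko. The spread of *Tet1* between the ctrl libraries was wider than the whole cko range, and the direction followed the ctrl library used. Its log2 fold change was -0.07 (-0.37 to 0.24, adjusted p = 0.763 in edgeR) with both, 0.18 without ctrl library 3 and -0.28 without ctrl library 1.

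**Figure D2:**
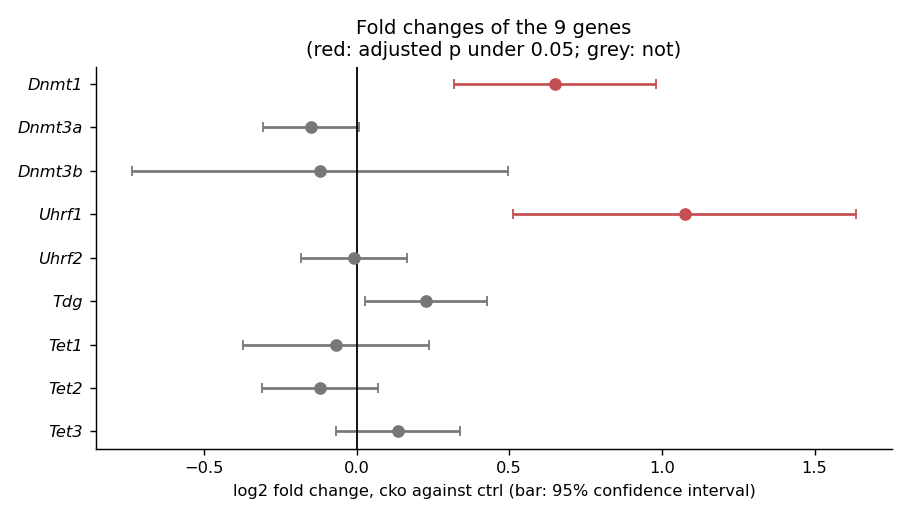
Log2 fold changes of cko against ctrl NSCs (horizontal axis) for the 9 genes, with 95% confidence intervals from edgeR. *Dnmt1* (0.65) and *Uhrf1* (1.08) are the 2 genes in red, with an adjusted p under 0.05, and the other 7 lie between -0.15 and 0.23.

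*Glt8d2* overlaps *Tdg* on the opposite strand by 367 exonic bases and had 9 to 27 counts in the 5 libraries, against 2873 to 4073 for *Tdg*. The pseudogene *Tdg-ps* had 3 to 13 counts, and *Dnmt3a-ps1* has no row in the table used here. The antisense genes *Dnmt3aos* and *Dnmt3bos* had at most 2 counts each. Whether strand was used in counting is not given in the sources used here.

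To compare levels between genes, CPM was divided by the kilobases of merged exons. On this scale *Tdg* and *Dnmt1* were highest in ctrl NSCs, with 26.7 ± 2.58 and 26.6 ± 3.64 (SD, n = 2), and did not differ beyond their spread. *Dnmt3a* (15.2 ± 0.316), *Uhrf1* (14.9 ± 4.29) and *Uhrf2* (14.0 ± 0.851) came next, within the spread of *Uhrf1*, and *Tet3* (11.7 ± 0.346) followed. *Tet2* (5.90 ± 0.438) and *Tet1* (5.43 ± 1.18) did not differ beyond their spread, and *Dnmt3b* was last with 0.929 ± 0.295. In cko NSCs the first place was held by *Dnmt1* with 41.6 ± 5.98 (SD, n = 3). *Uhrf1* (31.3 ± 7.49) had moved from the fourth to the second place, level with *Tdg* (31.2 ± 1.08). *Uhrf2* (13.9 ± 0.314), *Dnmt3a* (13.7 ± 0.121) and *Tet3* (12.8 ± 0.987) stood together, with *Tet2* (5.43 ± 0.219), *Tet1* (5.18 ± 0.237) and *Dnmt3b* (0.861 ± 0.133) again last. These levels depend on the gene model, and with the longest coding transcript as the length *Uhrf2* was at 33.9 over all libraries in place of 14.0.

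The make-up of the families was compared on the same scale. *Dnmt1* made up 59.9% and 64.4% of the reads per kilobase of the 3 methyltransferases in the ctrl libraries, and 70.1%, 76.1% and 75.5% in the cko libraries. The share of *Dnmt3a* was 34.0% to 37.3% in ctrl and 22.7% to 27.9% in cko, and that of *Dnmt3b* at most 2.84% in any library. The log2 ratio of *Dnmt3a* to *Dnmt1* was -0.80 ± 0.17 in ctrl (SD, n = 2) and -1.59 ± 0.23 in cko (SD, n = 3), and the groups did not overlap. *Uhrf1* made up 44.8% and 57.2% of the UHRF reads per kilobase in ctrl and 62.2% to 73.4% in cko, and the log2 ratio of *Uhrf1* to *Uhrf2* was 0.06 ± 0.51 against 1.14 ± 0.38. *Tet3* was first among the TET genes in every library, at 50.1% and 51.4% in ctrl and 53.5% to 56.3% in cko, and the log2 ratio of *Tet3* to *Tet1* was 1.12 ± 0.27 against 1.31 ± 0.08, with overlapping values. In exact permutation tests, two-sided, the p-value was 0.2 for the first 2 ratios and 0.6 for the last (0.3, 0.3 and 0.6 adjusted over the 3 ratios). With 2 against 3 libraries no p under 0.2 can be reached. The shares depend on the gene model as well. With the longest coding transcript as the length, *Uhrf1* made up 28.4% and 39.5% in ctrl and 44.5%, 57.5% and 53.4% in cko. In cko library 1 it was then below *Uhrf2*. Its mean log2 ratio to *Uhrf2* was -0.97 in ctrl and 0.10 in cko. The difference between genotypes stayed at 1.08, as it must, because the length cancels out of it.

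**Figure D3:**
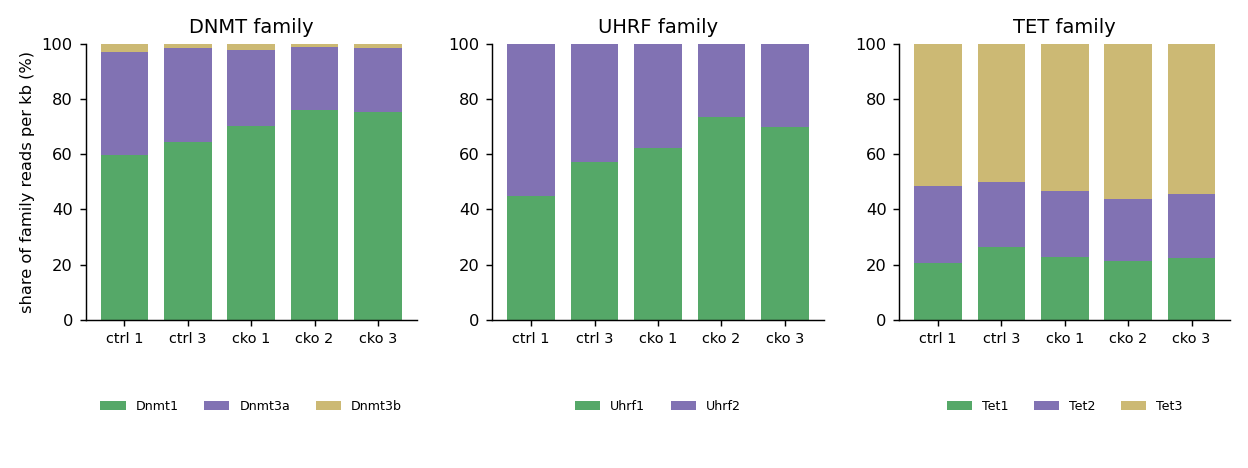
Share of each gene in the reads per kilobase of merged exons of its family (vertical axis, percent) in each of the 5 libraries, for the DNMT, UHRF and TET families. *Dnmt1* fills 59.9% and 64.4% of the DNMT bar in the ctrl libraries and 70.1% to 76.1% in the cko libraries, and *Uhrf1* goes from 44.8% and 57.2% to between 62.2% and 73.4% of the UHRF bar.

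*Dnmt1* and *Uhrf1* act at the replication fork, and they were read beside 42 genes of S phase, the part of the cell cycle in which DNA is copied. That list left *Uhrf1* out and included *Pcna*, *Hells*, *Cdca7* and *Ung*, which also stand in the lists below. By the same threshold, 28 of the 42 rose and 0 fell in cko NSCs, with 37 higher and 0 lower at an unadjusted p under 0.05 and 32 and 0 in DESeq2. *E2f8*, a repressor of the E2F family, rose from 13.5 and 15.8 CPM to 30.3, 38.9 and 38.9 CPM (2.46-fold), and *Pola1*, the catalytic subunit of DNA polymerase alpha, from 21.9 and 21.3 to 36.1, 45.1 and 39.8 CPM (1.87-fold). The median log2 fold change of the list was 0.78, against -0.003 over all tested genes. The mean of log2(CPM + 0.5) over the list was 4.34 and 4.69 in ctrl libraries 1 and 3 and 5.00, 5.44 and 5.35 in cko libraries 1, 2 and 3. *Dnmt1* and *Uhrf1* followed the same order of libraries, within the genotypes as well as between them, with ctrl library 1 lowest and cko library 2 highest. *Tdg* and *Tet3* were also lowest in ctrl library 1 and highest in cko library 2, without the full order. Relative to the list mean, *Dnmt1* was at 3.13 and 3.06 in ctrl and at 3.01, 2.96 and 3.01 in cko on the log2 scale, a difference of -0.10. *Uhrf1* was at 1.33 and 1.57 in ctrl and at 1.62, 1.88 and 1.80 in cko, a difference of 0.32. Of the 42 S-phase genes, 7 had a larger log2 fold change than *Uhrf1* and 29 a larger one than *Dnmt1*. For the other 7 members the same difference lay between -0.90 for *Dnmt3a* and -0.52 for *Tdg*. The part of cell cycle composition in the change of *Dnmt1* and *Uhrf1* was not tested.

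**Figure D4:**
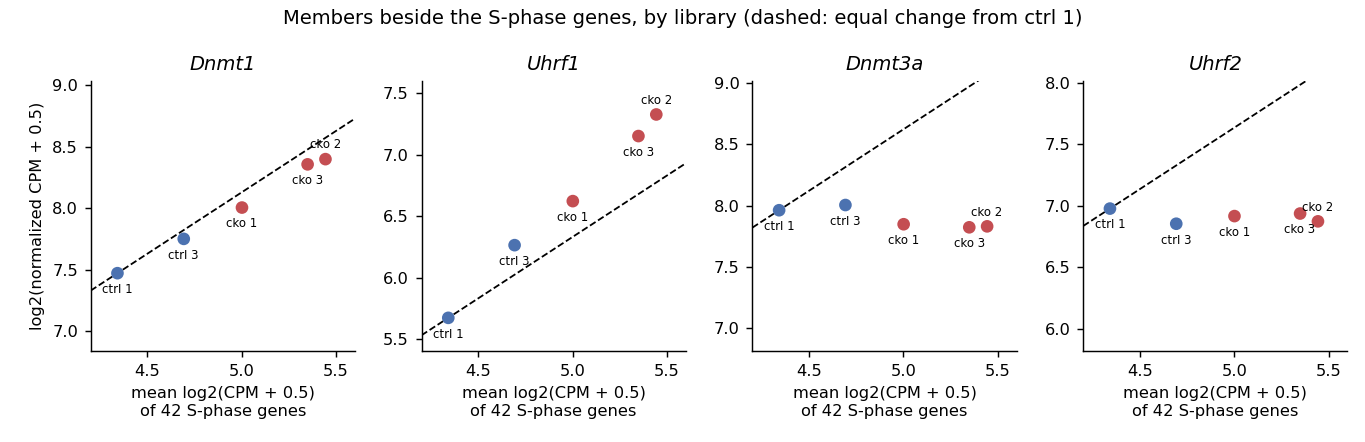
Log2(normalized CPM + 0.5) of *Dnmt1*, *Uhrf1*, *Dnmt3a* and *Uhrf2* (vertical axes) against the mean of the same quantity over 42 S-phase genes (horizontal axes, log2 scale) in ctrl (blue) and cko (red) libraries; the dashed line marks an equal change from ctrl library 1. *Dnmt1* runs close to the line and *Uhrf1* above it, while *Dnmt3a* and *Uhrf2* stay level as the S-phase mean goes from 4.34 to 5.44.

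The profiles over the 5 libraries were compared with those of 11447 other genes of at least 5 CPM, by the root mean square distance of centred log2(CPM + 0.5). The nearest to *Uhrf1* were *Rad51ap1* (distance 0.022) and *Mybl2* (0.043), and the nearest to *Dnmt1* were *Sgsm1* (0.015) and *Topbp1* (0.039). The distances include the difference between genotypes, so a similar change in these genes follows from how they were picked. *Rad51ap1* was measured at 9.78 and 15.4 CPM in ctrl and at 19.9, 31.7 and 29.0 CPM in cko NSCs. It is the only one of these genes on the S-phase list. *Sgsm1* was measured at 10.4 and 12.4 CPM against 15.1, 20.0 and 19.0 CPM.

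The other genes of the pathway were read from 6 lists of 64 genes in all, of which 60 were tested. At an adjusted p under 0.05 by edgeR, 9 rose and 4 fell in cko NSCs, with a median log2 fold change of 0.07. These shares can be set beside 7.86% higher and 8.57% lower over all tested genes. Without cko library 2 or cko library 3, the counts were 1 higher and 1 lower, while over all tested genes they went from 1314 and 1432 to 317 and 416 without cko library 2 and to 336 and 457 without cko library 3.

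Of 13 tested partners of the methyltransferases and of UHRF1, 2 were higher and 0 lower, with 4 and 0 at an unadjusted p under 0.05 in edgeR and 3 and 0 in DESeq2. *Pcna*, the sliding clamp of the replication fork to which DNMT1 binds, rose from 92.1 and 112 CPM in ctrl to 162, 208 and 200 CPM in cko NSCs (log2 fold change 0.90 and adjusted p = 0.00636 by edgeR). *Pclaf*, a PCNA-bound protein that is a substrate of UHRF1, rose from 37.9 and 55.8 to 87.1, 125 and 121 CPM (log2 fold change 1.25 and adjusted p = 0.00925 by edgeR). Neither gene overlapped between genotypes. *Hells*, a chromatin remodeller needed for methylation, differed by 0.74 on the log2 scale (adjusted p = 0.0584 in edgeR and 0.0134 in DESeq2), and was named after its values were seen. *Dnmt3l* and *Dppa3* could not be tested.

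Of the 8 genes for proteins that bind methylated CpG, 1 was lower and 0 were higher, with 1 higher at an unadjusted p under 0.05 in edgeR and 0 in DESeq2. *Zbtb4*, a zinc finger protein that binds methylated DNA, fell from 51.8 and 47.1 CPM to 37.9, 31.9 and 25.7 CPM (log2 fold change -0.64 and adjusted p = 0.0324 by edgeR). Among 9 tested partners of the TET enzymes and of active demethylation, 2 were higher and 0 lower, with 1 lower at an unadjusted p under 0.05 in edgeR and 0 in DESeq2. *Gadd45g*, a stress-induced adaptor linked to DNA demethylation, rose from 39.4 and 32.3 to 54.9, 53.4 and 56.0 CPM (log2 fold change 0.61, adjusted p = 0.0097 in edgeR), and the cytidine deaminase *Apobec3* rose with a log2 fold change of 0.64 (adjusted p = 0.0133).

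**Figure D5:**
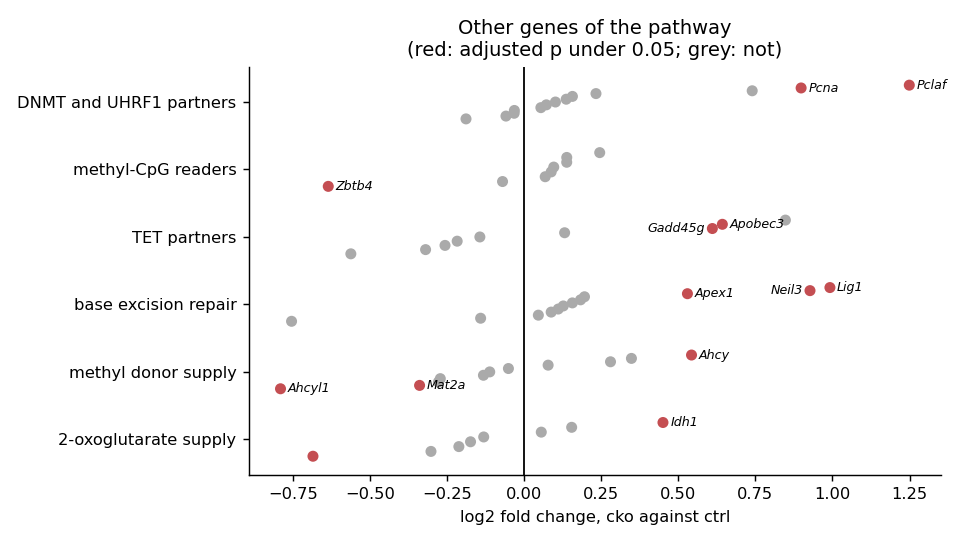
Log2 fold changes of cko against ctrl NSCs (horizontal axis) for the tested genes of 6 lists of the DNA methylation pathway, with 1 point for each gene and *Mbd4* in 2 lists. The 13 genes in red had an adjusted p under 0.05 in edgeR, 9 of them higher and 4 lower, and those described in the text carry their names.

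Of the 12 genes of base excision repair, which completes demethylation after TDG, 3 were higher and 0 lower, with the same counts at an unadjusted p under 0.05 in edgeR and in DESeq2. *Lig1*, the ligase that also joins replicated fragments, rose from 54.6 and 70.7 to 94.3, 142 and 137 CPM (log2 fold change 0.99, adjusted p = 0.0162 in edgeR). The glycosylase *Neil3* rose from 14.2 and 16.0 to 22.2, 31.5 and 32.3 CPM (log2 fold change 0.93), and *Apex1*, the endonuclease that cuts at the emptied site, had a log2 fold change of 0.53. In all 3 genes each cko library was above both ctrl libraries.

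The supply of S-adenosylmethionine, the methyl donor of the DNMT enzymes, had 1 of 11 tested genes higher and 2 lower. These counts were 2 and 3 at an unadjusted p under 0.05 in edgeR and 1 and 2 in DESeq2. *Ahcy*, which clears the inhibitory product of methylation, rose from 44.9 and 48.8 to 59.1, 73.3 and 72.1 CPM (log2 fold change 0.54 and adjusted p = 0.0195 by edgeR). *Ahcyl1*, a relative of AHCY without its enzyme activity, fell from 647 and 679 to 418, 375 and 357 CPM (log2 fold change -0.79 and adjusted p = 0.00258 by edgeR). *Mat2a*, which makes the methyl donor, fell from 227 and 245 to 181, 191 and 188 CPM (log2 fold change -0.34 and adjusted p = 0.0221 by edgeR). *Bhmt* could not be tested. Of 8 genes of 2-oxoglutarate metabolism, 1 was higher and 1 lower, with a median log2 fold change of -0.15. At an unadjusted p under 0.05 in edgeR 1 was higher and 3 were lower, and in DESeq2 1 and 1. *Idh1*, which makes 2-oxoglutarate in the cytosol, rose from 309 and 263 to 406, 386 and 382 CPM (log2 fold change 0.45, adjusted p = 0.0181 in edgeR).

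Germline genes that somatic cells silence by promoter methylation were low in these libraries. Of 12 listed genes 8 were in the table and 3 could be tested, and their summed level was 15.05 to 16.99 CPM in ctrl and 12.2 to 15.3 CPM in cko NSCs. No gene of the list was higher or lower at an adjusted p under 0.05 in edgeR, with 0 higher and 1 lower at an unadjusted p under 0.05 and in DESeq2. That gene, *Ddx4*, the germline RNA helicase, was measured at 7.08 and 6.99 CPM in ctrl and at 3.02, 4.76 and 4.18 CPM in cko, a log2 difference of -0.81 (adjusted p = 0.0508 in edgeR and 0.0187 in DESeq2). The log2 difference was 0.23 for *Brdt* (adjusted p = 0.412 in edgeR) and -0.51 for *Sycp3* (adjusted p = 0.406), which was under 1 CPM. *Dazl*, *Sycp1*, *Mael*, *Taf7l*, *Tex101*, *Hormad1*, *Slc25a31*, *Asz1* and *Stk31* could not be tested. *Ddx4*, *Brdt* and *Sycp3* were named after their values were seen. Methylation itself was not measured in these libraries.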

How the data were processed

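RNA-seq counts of 9 genes were compared between cko and ctrl NSCs. Per the study's methods, read quality was assessed in FastQC (v0.11.5), low-quality reads were removed in NGSQC (v2.3.3) and HISAT2 was used for alignment to mm10, while the submitters' processing notes name GRCm39. The authors deposited unnormalized counts. The counting tool, annotation and strand setting are not given in the sources used here. The averaged ctrl column entered 1 alternative only.

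Symbols, positions and exon lengths came from GENCODE M21 (GRCm38). Genes were filtered by filterByExpr, normalized by TMM and tested with edgeR 4.0.16 (glmQLFit and glmQLFTest, genotype as the factor) in R 4.3.3, with Benjamini-Hochberg adjustment over 16710 genes. DESeq2 1.42.0, median-of-ratios factors, other filters, a replicate block, all 6 columns and leaving out each library were alternatives. Steps were tested on simulated data.

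The members and lists were chosen with earlier results of these data known. All members are named, with up to 2 genes per direction and list of the smallest p among those past an adjusted p of 0.05, genes removed by the filter, and the 2 nearest profiles. *Apex1* is beyond this rule and was named after its values were seen. Cell type and sex lists are given by counts instead. Seed matches of miR-151 were not analysed here, and a pair of list genes that this rule names is not reported here.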

Additional observations from a re-analysis of the deposited data

How the results depend on the processing

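Of the calls on members, *Dnmt1* and *Uhrf1* kept direction in all 11 alternatives. Both calls were lost without cko replicate 2 or 3 and kept in the other fits that held at least 2 ctrl columns. The fits without a ctrl replicate held 1 ctrl library and so no spread within ctrl. No calls in them are counted in this section. The count of members called higher, 2 as reported, was 2 without cko replicate 1 and 0 without cko replicate 2 or 3. It was 3 with all 6 columns and 1 at the study's threshold in edgeR, where 2.39% of all tested genes were higher. The count called lower, 0 as reported, was 1 with all 6 columns and stayed at 0 without any 1 of the cko replicates. Over all tested genes, all 6 columns gave 2865 higher and 2794 lower of 16322, against 1314 and 1432 of 16710 as reported. Over all tested genes, 853 of 16481 were higher and 907 lower without cko replicate 1. Without cko replicate 2 these were 317 and 416 of 16284, and without cko replicate 3 336 and 457 of 16306. With 9 pathway list genes higher and 4 lower as reported, leaving out 1 library gave 1 to 13 higher and 1 to 8 lower, all 6 columns gave 15 and 7, and no filter gave 7 lower. Fewer libraries were compared in the former, and for the other settings the cause was not tested.

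The sign changed in 3 members, none of them called as reported. *Dnmt3b* was at 0.24 without ctrl replicate 1 and at 0.021 with the replicate block, *Uhrf2* at 0.045 without ctrl replicate 1, 0.00059 without cko replicate 2 and 0.011 with the block, and *Tet1* at 0.18 without ctrl replicate 3 (log2 fold changes). Leaving out 1 library gave ranges of -0.40 to 0.24, -0.064 to 0.045 and -0.28 to 0.18 for these genes. The log2 ratio of *Tet3* to *Tet1* differed between genotypes by -0.0071 to 0.38 with 1 library left out, the former without ctrl replicate 3.

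Libraries of the 2 genotypes share replicate numbers, and the sources do not say whether these numbers stand for litters. Deviations from the genotype mean had a Pearson's r over genes (not independent replicates) of 0.143 for replicate 1 and 0.051 for replicate 3. Crossed numbers gave -0.051 (ctrl 1 with cko 3) and -0.143 (ctrl 3 with cko 1). With 2 ctrl libraries these deviations mirror each other, so r cannot decide whether the numbers are pairs. The main fit did not take them as pairs. With the replicate block, members called higher stayed at 2 and lower at 0, with log2 fold changes of 0.92 for *Uhrf1* and 0.57 for *Dnmt1*. In that fit cko library 2 had no ctrl library in its block and so added nothing to the genotype effect. The longest coding transcript as gene length was an alternative chosen after seeing the data. With it, the order in ctrl NSCs put *Uhrf2* second and *Uhrf1* sixth. Differences in a ratio between genotypes cannot respond to this choice, because the length cancels out of them. Apart from the fits that left 1 ctrl library, *Dnmt3a* and *Tdg* were each called in 1 alternative, with all 6 columns.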
